A study of Mus musculus with 15 samples.

Results

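The genes described here are the 7 clock output transcription factors Dbp, Tef, Hlf, Nfil3, Bhlhe40, Bhlhe41 and Ciart, taken by name from a table of 14806 features, of which 14272 carry a gene name. All 7 were present, Ciart under its older symbol, and all 7 reached the level required for testing. RNA was sequenced from the quadriceps of DBA/2J-mdx males, which lack dystrophin and serve as a model of Duchenne muscular dystrophy, in 3 groups of 5 libraries. Every group was injected into the peritoneum 7 times a week: vehicle mice with DMSO each time, weekly mice with prednisone at 1 mg/kg on 1 occasion and vehicle on the other 6, and daily mice with prednisone at 1 mg/kg each time. Prednisone is a synthetic glucocorticoid. The labels give the age as 6 months in the protocol and about 7 months in the sample descriptions. The sources used here give neither the length of treatment, nor the hour of tissue collection, nor the interval since the last dose. Levels of clock-driven genes vary over the day. A change in level therefore cannot be told apart here from a difference in hour or clock phase between groups. The labels also leave unsaid whether each library of a group is its own animal. The p-values therefore refer to the spread among these libraries alone, and that spread may be technical. Between vehicle libraries, read counts differed by a chi-square of 1.5 to 2.02 per degree of freedom, where counting error alone gives about 1. Between weekly libraries it was 19.4 to 89.4, and between daily libraries 4.63 to 212. Comparisons with vehicle, including those without overlap, rest in part on this narrow vehicle spread.

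The circadian clock is a transcriptional feedback loop in which BMAL1 (gene Arntl) and CLOCK switch on their own repressors, and it passes its rhythm to other genes through factors that it drives in turn. DBP, TEF and HLF are activators of the PAR bZIP family that bind D-box elements, and NFIL3 (also called E4BP4) is a repressor that competes for the same elements. BHLHE40 and BHLHE41 (DEC1 and DEC2) bind E-boxes and repress genes that CLOCK and BMAL1 activate, and CIART (CHRONO) represses CLOCK and BMAL1 activity directly. In muscle the clock times genes of metabolism and growth, and glucocorticoids are among the signals that set peripheral clocks.

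Dbp and Tef fell under both prednisone regimens, and Nfil3 rose under both. Dbp dropped from a vehicle mean of 30.2 CPM (read counts scaled to a fixed library total) to means of 4.85 CPM under weekly and 3.47 CPM under daily prednisone, while Nfil3 went from 10.2 to 40.8 and 44.9 CPM. Between the regimens 1 of 7 factors was called on the deposited scale, Bhlhe40, lower in daily than in weekly, where 8.73% of all tested genes were called. Nfil3 was also called there with DESeq2, and Hlf without weekly replicate 4. Hlf, Bhlhe41 and Ciart were not called in any comparison on the deposited scale with all libraries, but Hlf and Bhlhe41 were called against vehicle in both regimens, and Ciart in daily, under some other scalings or tests.

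The libraries held from 2780768 to 11052552 recovered reads. Weekly replicate 4, the shallowest, held 0.57% of its values in the mitochondrial ribosomal RNA mt-Rnr2, against 6.23% to 9.44% in the other weekly libraries. This share was 12.7% to 13.4% in vehicle, above every weekly library, and 8.06% to 14.4% in daily, and its part in the results was not tested. Daily replicate 3 held 20.6% in Gm26924 and 7.8% in Lars2, so its other genes are scaled down and its TMM factor was 0.652. For some results that rest on these libraries, values without them are also given. All 10 skeletal muscle markers were detected, and none of them was called by limma in any comparison, on the deposited scale or with TMM. With DESeq2, Acta1 was lower in daily against vehicle (-0.416, adjusted p = 0.00389) and Myh2 higher in weekly against vehicle (0.702, adjusted p = 0.0489). Acta1, Ckm, Des, Myh4 and Myl1 in daily also lay below vehicle without overlap, and the other muscle markers overlapped. The summed level of the 10 was 53534 to 112022 CPM over the 15 libraries. TMM, a scaling by trimmed means of ratios between libraries, is reported beside the deposited scale because the median of all genes moved by 0.17 (log2) in weekly against vehicle, by -0.08 in daily against vehicle and by -0.24 in daily against weekly. Over all 14059 tested genes, 983 were called higher and 150 lower in weekly against vehicle (804 and 593 with TMM). The split was 248 and 299 in daily against vehicle (784 and 490 with TMM), and 68 and 1159 in daily against weekly (292 and 371 with TMM). In bulk tissue, fewer cells of a type and less RNA per cell cannot be told apart.

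The promoters are shown first because the clock drives most of these factors through elements such as the E-box, and Nfil3 through ROR and REV-ERB elements. RefSeq promoter windows (build GRCm38.p6) were found for 6 of the 7 factors, with 7 windows in all since Tef has 2 starts, and the 250 bases before each start were searched on both strands. The canonical E-box CACGTG, which is its own reverse complement, was present in 4 of 7 windows, against 6.02% of 32851 windows of the same length. Those windows were both starts of Tef, the start of Bhlhe41 and the start of Ciart, where it occurred 3 times. Tef thus counts for 2 of the 4, and annotated exons cover the whole window of its first start, which is not printed. In the sequences below, read 5′ to 3′ on the strand of the gene and without any base covered by an annotated exon, capitals mark CACGTG. Ciart is shown for its 3 copies at chr3:95882252-95882478 (minus strand), Tef for its second start at chr15:81811164-81811413 (plus strand), Bhlhe41 at chr6:145865559-145865670 (minus strand), and Dbp at chr7:45704997-45705087 (plus strand) as the factor with the largest change and no match in its window.
Ciart: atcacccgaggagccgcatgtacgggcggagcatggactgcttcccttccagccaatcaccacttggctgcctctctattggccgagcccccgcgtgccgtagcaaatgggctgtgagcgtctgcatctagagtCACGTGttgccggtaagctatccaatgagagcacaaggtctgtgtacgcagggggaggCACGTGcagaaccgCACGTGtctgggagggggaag
Tef: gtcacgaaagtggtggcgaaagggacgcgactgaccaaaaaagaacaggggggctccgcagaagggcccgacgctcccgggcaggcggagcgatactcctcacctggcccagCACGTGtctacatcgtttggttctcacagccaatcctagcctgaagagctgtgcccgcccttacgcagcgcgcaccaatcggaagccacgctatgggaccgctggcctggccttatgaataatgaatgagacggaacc
Bhlhe41: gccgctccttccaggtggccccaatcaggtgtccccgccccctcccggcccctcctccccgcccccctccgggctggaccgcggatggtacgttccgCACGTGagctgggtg
Dbp: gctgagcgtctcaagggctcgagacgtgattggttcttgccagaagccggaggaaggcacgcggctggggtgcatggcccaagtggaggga

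The other elements were rarer in these windows. The E-box variant CACGTT was in 0 of 7 windows (3.85% of all windows), and the D-box in either spelling, TTATGTAA or TTACGTAA, was in 0 of 7 (0.931% of all windows). The ROR and REV-ERB element core, TAGGTCA or TGGGTCA, was in 1 of 7 windows, that of Nfil3 (5.38% of all windows), where it lies from 12 to 6 bases before the start in a stretch that an exon annotation covers and that is not printed. The full palindromic consensus of the glucocorticoid response element was in 0 of 7 (0.00913% of all windows). No pair of these motifs overlaps in the windows printed. A match describes letters in a window and no match says only that these letters are absent from it.

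Levels can be compared between genes only per length, here as CPM per kb of annotated exon. In vehicle libraries Tef was the most abundant of the 7 at 25.4 CPM per kb, followed by Bhlhe40 at 12.7, Dbp at 10.1, Nfil3 at 5.03, Bhlhe41 at 4.01, Ciart at 1.07 and Hlf at 0.824. Each neighbour in that order was separated by range over the 5 libraries except Ciart and Hlf, which overlapped. In weekly libraries Nfil3 came first at 20.1 CPM per kb, then Bhlhe40 at 16.5 and Tef at 14, and the neighbours among these top 3 overlapped. In daily libraries Nfil3 at 22.1 CPM per kb lay above Tef at 12.7 in every library, and Tef overlapped with Bhlhe40 at 9.16. Dbp moved from the third place in vehicle to the fifth in both treated groups, at 1.62 CPM per kb in weekly and 1.16 in daily. The plot of levels by library shows the same values per gene without the division by length.

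**Figure D1:**
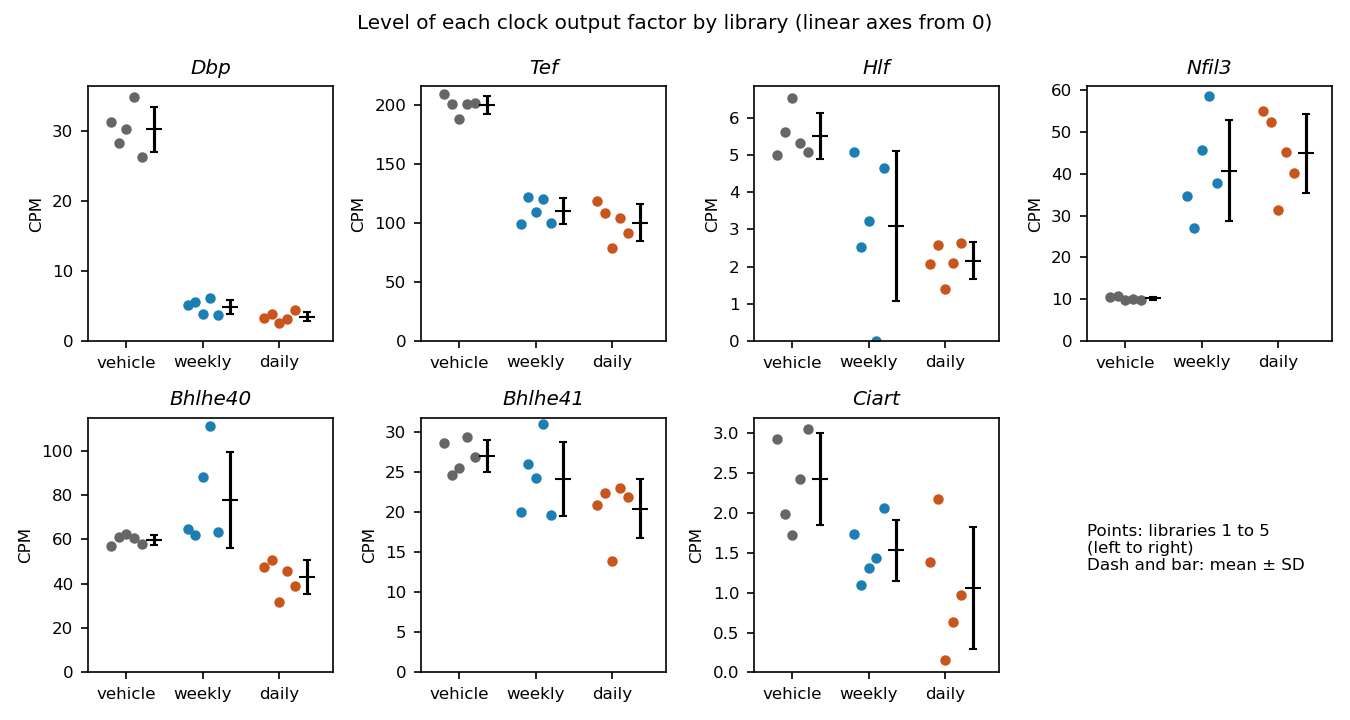
Level of each of the 7 factors in CPM (linear axes from 0) in the 5 vehicle, 5 weekly and 5 daily libraries, with each point 1 library in replicate order, the dash the mean and the bar the SD. The vehicle libraries of Dbp (26.2 to 34.8 CPM) lie above all treated libraries (2.63 to 6.11 CPM), and those of Nfil3 (9.83 to 10.7 CPM) lie below all treated libraries (27.1 to 58.6 CPM).

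Dbp (gene ENSMUSG00000059824.12, chr7:45705088-45710203, plus strand, GRCm38) encodes the D-box activator with the widest daily swing in many tissues. Its level was 31.3, 28.2, 30.3, 34.8 and 26.2 CPM in vehicle replicates 1 to 5. It was 5.07, 5.52, 3.83, 6.11 and 3.74 CPM in the weekly libraries and 3.32, 3.80, 2.63, 3.14 and 4.43 CPM in the daily libraries. Both treated groups were thus far below vehicle with no overlap, and they overlapped with each other. The log2 change of log2(CPM + 0.5) was -2.535 (SE 0.18) in weekly against vehicle, a 5.79-fold lower level (limma, BH-adjusted p = 7.35e-09). It was -2.96 (SE 0.18) in daily against vehicle, a 7.79-fold lower level (limma, BH-adjusted p = 9.81e-10), the smallest p of all 14059 genes in that comparison. Daily and weekly differed by -0.43 with a 95% interval from -0.80 to -0.06, and the difference was not called (limma, BH-adjusted p = 0.12). Dbp was called against vehicle in all 25 alternatives of each comparison, with changes from -2.85 to -2.24 for weekly and from -3.10 to -2.56 for daily. Dbp shares 539 exon bases with Sphk2 on the opposite strand, and the sources used here do not say whether reads were counted by strand. Sphk2, a sphingosine kinase, had 14.9 ± 1.55, 17.4 ± 3.82 and 14.2 ± 2.4 CPM in vehicle, weekly and daily (SD, n = 5 each) and was not called (limma, BH-adjusted p of 0.475 and 0.851 for weekly and daily against vehicle).

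Tef (ENSMUSG00000022389.15, chr15:81802421-81826863, plus strand) encodes the PAR bZIP activator that was most abundant here. It had 209.4, 200.6, 188.2, 200.3 and 201.5 CPM in vehicle. The weekly libraries had 99.3, 122.2, 108.9, 120.1 and 100.1 CPM, and the daily libraries had 118.7, 108.0, 78.8, 104.0 and 91.4 CPM. Every treated library lay below every vehicle library, and weekly and daily overlapped. Tef fell by 0.86 on the log2 scale in weekly (SE 0.13, limma, BH-adjusted p = 0.000168) and by 1.01 in daily (SE 0.13, limma, BH-adjusted p = 4.09e-05). The difference between regimens was -0.14 with an interval from -0.41 to 0.12 (limma, BH-adjusted p = 0.465), and its sign turned with TMM to 0.12. With the 5 vehicle libraries averaged into 1 sample, the changes stayed at -0.86 and -1.01 and were not called (limma, BH-adjusted p = 0.875 for weekly and 0.774 for daily). In that setting, with an arm of 1 sample, 8 of all tested genes were called in weekly and 3 in daily against vehicle. Part of Tef, 193 exon bases, is shared with a gene on the other strand that was not analysed here.

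Hlf (ENSMUSG00000003949.16, chr11:90336536-90390895, minus strand) encodes the third activator of the family and had the lowest mean per length in every group. The vehicle libraries had 4.99, 5.62, 6.53, 5.31 and 5.09 CPM. The weekly libraries had 5.07, 2.53, 3.22, 0 and 4.64 CPM, and the daily libraries had 2.08, 2.58, 1.39, 2.09 and 2.63 CPM. Daily lay below vehicle in every library, whereas weekly replicate 1 lay within the vehicle range. Weekly replicate 4 had 0 of 2780768 reads, which allows a level of up to 1.08 CPM (3 reads), for counting error only. Hlf was not called in weekly against vehicle (-1.11, SE 0.43, limma, BH-adjusted p = 0.112) or in daily against vehicle (-1.19, SE 0.43, limma, BH-adjusted p = 0.139). Without that library the weekly change was -0.50 (limma, BH-adjusted p = 0.147) and the daily change, unaltered in size at -1.19, was called (limma, BH-adjusted p = 4.12e-05). Without it, Hlf was also lower in daily than in weekly, by -0.70 (limma, BH-adjusted p = 0.0276), against -0.08 with it. Tests on recovered reads called Hlf in daily against vehicle, with an adjusted p of 0.0231 in edgeR's quasi-likelihood test and 0.000519 in DESeq2. In weekly against vehicle Hlf was called with DESeq2 (-0.89, adjusted p = 0.016), without weekly replicate 1 (-1.37, limma, BH-adjusted p = 0.0452) and under TMM without weekly replicate 4 and daily replicate 3 (-0.64, limma, BH-adjusted p = 0.0196).

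Added together, the transcripts of these 3 activators came to 36.3 ± 1.42 CPM per kb in vehicle (SD, n = 5), 16.1 ± 1.37 in weekly and 14.2 ± 2.06 in daily. The vehicle sums, 35.0 to 37.9 CPM per kb, did not overlap with the treated sums, 11.1 to 17.8. The share of that sum due to Dbp was 24.9% to 30.7% in vehicle, 8.19% to 11.8% in weekly and 6.73% to 11% in daily, and the share due to Tef was 67.2% to 72.9%, 83.7% to 88.7% and 86.1% to 91.4%. The summed pool was therefore mainly Tef in every library, and more so in the treated ones.

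Nfil3 (ENSMUSG00000056749.7, chr13:52967209-52981073, minus strand), the repressor that opposes these activators at D-boxes, moved the other way. The vehicle libraries had 10.6, 10.7, 9.85, 10.1 and 9.83 CPM, a spread of 3.91% of the mean, below the 10.6% of counting error alone. The weekly libraries had 34.8, 27.1, 45.8, 58.6 and 37.7 CPM, and the daily libraries had 55.0, 52.3, 31.4, 45.2 and 40.3 CPM. All 10 treated libraries were above all vehicle libraries, and the treated groups overlapped. Nfil3 rose by 1.90 on the log2 scale in weekly (SE 0.18, 3.74-fold, limma, BH-adjusted p = 7.67e-07) and by 2.06 in daily (SE 0.18, 4.16-fold, limma, BH-adjusted p = 4.9e-07). Daily differed from weekly by 0.16 with an interval from -0.22 to 0.53 (limma, BH-adjusted p = 0.6). With TMM this difference was 0.42 and not called (limma, BH-adjusted p = 0.078), with DESeq2 it was 0.42 and called (adjusted p = 0.0478), and under TMM without weekly replicate 4 and daily replicate 3 it was 0.53 and called (limma, BH-adjusted p = 0.00414). With the vehicle libraries averaged into 1 sample, an arm of 1, the changes stayed at 1.90 and 2.06 and were not called (limma, BH-adjusted p = 0.0716 for weekly and 0.0637 for daily). Nfil3 overlaps no other annotated gene.

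Markers of other cell types also moved in the comparisons with vehicle in which Dbp, Tef and Nfil3 were called. Of 7 adipocyte markers, 4 were higher in weekly (2 with TMM) and 4 were lower in daily. Of 3 erythroid markers, 2 were lower in daily, with sums of 79.1 to 84.8 CPM in vehicle and 23.4 to 45.1 CPM in daily, and 0 were called in weekly (2 lower with TMM). Of 4 Schwann cell markers, 1 was higher in weekly and 0 were called in daily (2 higher with TMM). No endothelial or macrophage marker was called against vehicle on either scale. The part of these cell types in the changes of the factors was not tested.

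The ratio of repressor to activator within a library does not depend on how that library was scaled. Nfil3 per Dbp, in CPM per kb, was 0.427 to 0.558 in vehicle, 7.24 to 17.7 in weekly and 13.4 to 24.4 in daily. Nfil3 per Tef was 0.189 to 0.206, 0.859 to 1.90 and 1.55 to 1.88 in the same order. Dbp and Tef thus both exceeded Nfil3 in every vehicle library, and Nfil3 exceeded Dbp in every treated library and Tef in 9 of 10. Nfil3 per Hlf was 4.98 to 7.0 in vehicle, 22.6 to 46.9 in the 4 weekly libraries with Hlf reads, and 50.5 to 87.3 in daily.

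**Figure D2:**
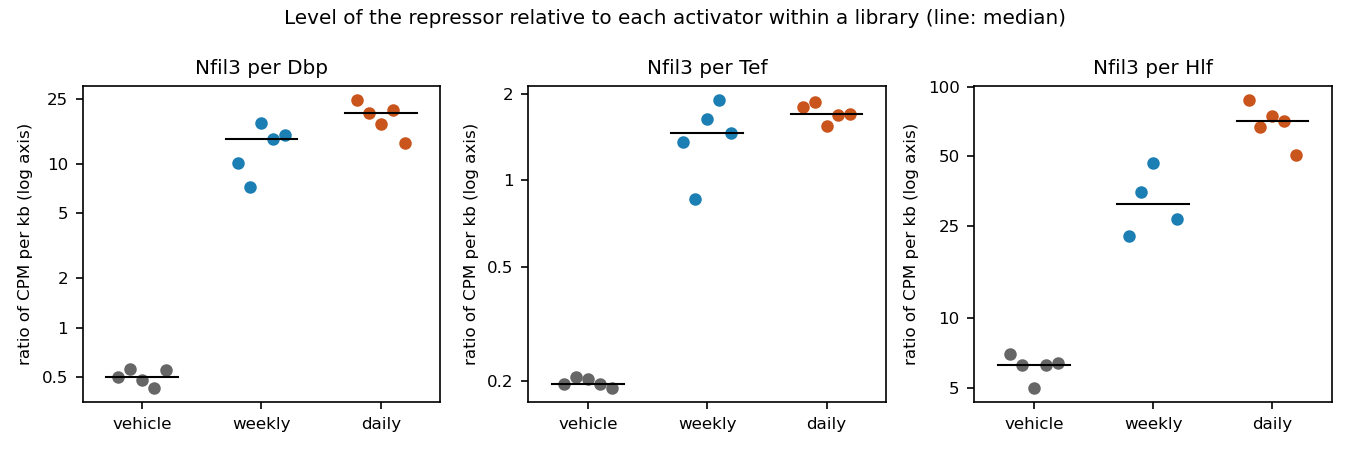
Ratio of Nfil3 to Dbp, Tef and Hlf within each library, in CPM per kb of exon, on log axes by group, with 1 point a library and the line at the median. Vehicle medians of 0.5, 0.196 and 6.25 lie below every treated library, and weekly replicate 4 has no point for Hlf because it had 0 Hlf reads.

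Bhlhe40 (ENSMUSG00000030103.11, chr6:108660629-108666925, plus strand), the E-box repressor DEC1, was called between the 2 regimens, in a comparison where 8.24% of all tested genes were called lower. The vehicle libraries had 57.1, 61.0, 62.3, 60.8 and 58.0 CPM. The weekly libraries had 64.7, 61.9, 88.0, 111.1 and 63.5 CPM, and the daily libraries had 47.8, 50.9, 31.8, 45.8 and 39.2 CPM. Every daily library lay below every vehicle and weekly library, and the weekly libraries reached from the vehicle range upward. Daily was lower than weekly by 0.825 on the log2 scale, a 1.77-fold lower level (SE 0.16, limma, BH-adjusted p = 0.00385). The TMM value was -0.56 (limma, BH-adjusted p = 0.00926), and the call held in 24 of 24 alternatives, with values from -0.90 to -0.47. Weekly replicate 4 was the highest library, and without it the difference was -0.69 (limma, BH-adjusted p = 0.000662). Neither regimen was called against vehicle on the deposited scale, with 0.34 in weekly (limma, BH-adjusted p = 0.204) and -0.49 in daily (limma, BH-adjusted p = 0.105). In daily against vehicle the TMM value of -0.40 was called (limma, BH-adjusted p = 0.0392), as was the deposited scale without weekly replicate 4 (limma, BH-adjusted p = 0.0135). Bhlhe40 shares 118 exon bases with a gene on the other strand that was not analysed here.

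Markers of other cell types differed between weekly and daily. Of 7 adipocyte markers, 6 were lower in daily than in weekly and none was higher, and their summed level in CPM was 132 to 302 in daily, 471 to 2258 in weekly and 427 to 467 in vehicle. Of 6 endothelial markers, 3 were lower in daily than in weekly (0 with TMM), with sums of 114 to 185 CPM in daily and 205 to 323 CPM in weekly. Of 3 erythroid markers detected, 2 were lower, with sums of 23.4 to 45.1 CPM in daily and 43.5 to 78.3 CPM in weekly. Of 7 macrophage markers, 1 was lower on the deposited scale (0 lower and 1 higher with TMM), with sums of 245 to 502 CPM in daily and 169 to 1506 CPM in weekly. Of 4 Schwann cell markers, 1 was lower (0 with TMM), with sums of 31.0 to 45.4 CPM in daily and 36.6 to 51.3 CPM in weekly. No marker of these lists was at 0 in all libraries, and the part of these cell types in the Bhlhe40 difference was not tested.

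Bhlhe41 (ENSMUSG00000030256.11, chr6:145858243-145865558, minus strand), the paralog DEC2, changed less. The vehicle libraries had 28.6, 24.6, 25.5, 29.3 and 26.8 CPM. The weekly libraries had 20.0, 26.0, 24.2, 30.9 and 19.6 CPM, and the daily libraries had 20.9, 22.3, 13.9, 23.0 and 21.9 CPM. All daily libraries were below all vehicle libraries, and the weekly libraries overlapped with both. Bhlhe41 was not called in weekly against vehicle (-0.17, SE 0.16, limma, BH-adjusted p = 0.522) or in daily against vehicle (-0.41, SE 0.16, limma, BH-adjusted p = 0.176). With TMM the weekly value was -0.35 and was called (limma, BH-adjusted p = 0.0458), as it was with edgeR (adjusted p = 0.0371) and DESeq2 (adjusted p = 0.0172). The daily value with TMM was -0.33 and was not called (limma, BH-adjusted p = 0.0686). With DESeq2 the daily value was -0.34 and was called (adjusted p = 0.0363). Daily against vehicle was called in 2 of 25 alternatives. Daily and weekly differed by -0.24 with an interval from -0.57 to 0.09 (limma, BH-adjusted p = 0.331). Bhlhe40 per Bhlhe41, in CPM per kb, was 2.85 to 3.54 in vehicle, 3.4 to 5.2 in weekly and 2.56 to 3.27 in daily, so weekly and daily did not overlap in this ratio. Bhlhe41 shares 1280 exon bases with a gene on the other strand that was not analysed here, which makes its level less certain.

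Ciart (ENSMUSG00000038550.10, chr3:95878503-95882251, minus strand), the repressor of CLOCK and BMAL1 whose window held 3 E-boxes, was close to the detection limit. The vehicle libraries had 2.92, 1.99, 1.72, 2.43 and 3.05 CPM. The weekly libraries had 1.74, 1.09, 1.31, 1.44 and 2.06 CPM, and the daily libraries had 1.38, 2.17, 0.155, 0.628 and 0.97 CPM. These values rest on 15 to 27 reads in vehicle, 4 to 16 reads in weekly and 1 to 16 reads in daily, and both treated groups overlapped with vehicle. The change was -0.53 in weekly (SE 0.30, limma, BH-adjusted p = 0.286) and -1.03 in daily (SE 0.30, limma, BH-adjusted p = 0.0571). The daily value was called with TMM, at -1.03 (limma, BH-adjusted p = 0.028), and without weekly replicate 4 (limma, BH-adjusted p = 0.00909). Daily replicate 3 contributed a single read, and without it the daily change was -0.76 (limma, BH-adjusted p = 0.0943). At this depth smaller differences in Ciart were not detectable.

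Counted over the set, weekly against vehicle called 3 of 7 factors (1 higher, 2 lower), when 8.06% of all tested genes were called, 6.99% higher and 1.07% lower. Daily against vehicle called the same 3 of 7, Dbp, Tef and Nfil3 (1 higher, 2 lower), against 3.89% of all genes, 1.76% higher and 2.13% lower. Daily against weekly called 1 of 7, lower, against 8.73% of all genes, 0.484% higher and 8.24% lower, so that share stood near the background. With TMM the counts were 4, 5 and 1 of 7, against 9.94%, 9.06% and 4.72% of all genes. Groups did not overlap for 3 of 7 factors in weekly against vehicle (13.4% of all genes), 6 of 7 in daily against vehicle (11.3%) and 1 of 7 in daily against weekly (7.21%). The median log2 change of the 7 was -0.53, -1.01 and -0.24 in these comparisons, beside 0.17, -0.08 and -0.24 for all tested genes. Both comparisons with vehicle share the 5 vehicle libraries, so their likeness is not independent. The 7 factors were chosen with earlier results of these data known, so their shares beside all genes are descriptions only.

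**Figure D3:**
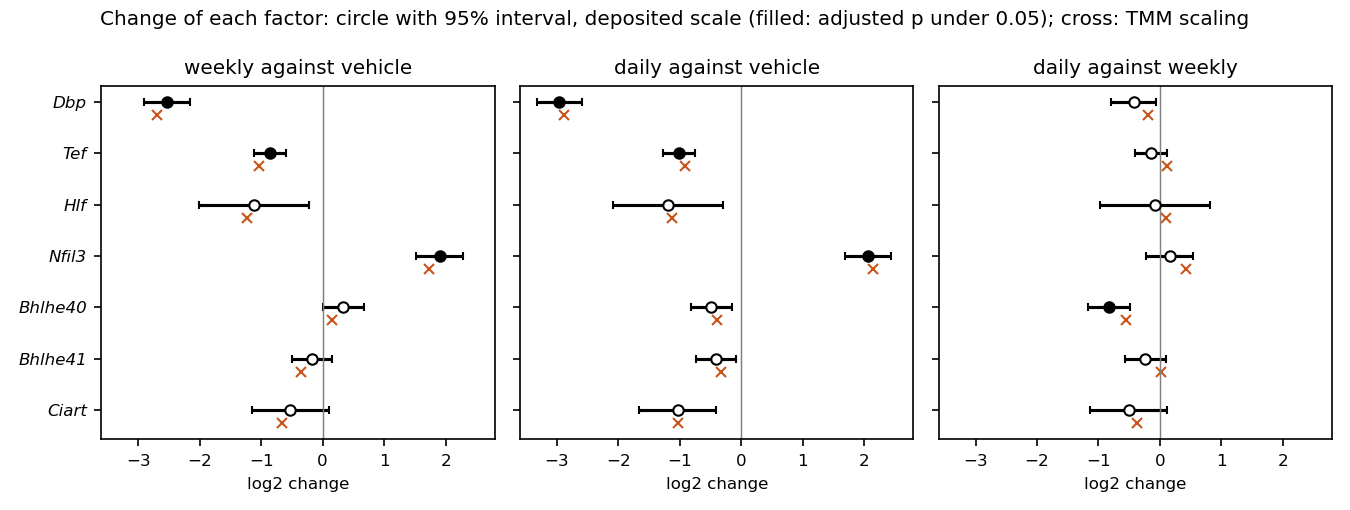
Log2 change of each factor in the 3 comparisons, as a circle with its 95% interval on the deposited scale (filled where the limma BH-adjusted p is under 0.05) and a cross for TMM scaling. Dbp at -2.535 and -2.96 and Nfil3 at 1.90 and 2.06 lie farthest from 0, and only Bhlhe40 at -0.825 is filled in daily against weekly.

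The rest of the clock was read from lists grouped by the control element their genes are known for, with some genes on more than 1 list. These lists too were chosen with earlier results of these data known, so their counts beside all tested genes are descriptions only. Of 6 tested D-box clock genes, 5 fell and none rose in both comparisons with vehicle, also with TMM. Of all tested genes, 1.07% were called lower in weekly and 2.13% in daily on the deposited scale. Per3, a repressor of the core loop, had 61.1 ± 4.2 CPM in vehicle, 18.7 ± 0.944 in weekly and 14.8 ± 2.9 in daily (SD, n = 5 each), with changes of -1.68 and -2.03 (SE 0.14 each, limma, BH-adjusted p = 1.54e-07 and 1.42e-08). Per2 changed by -1.50 and -1.32, Nr1d2 (REV-ERB beta) by -1.11 and -1.05, Nr1d1 (REV-ERB alpha) by -0.69 and -0.82, and Rora, the activator that opposes the REV-ERBs, by -0.61 and -0.56. The remaining gene of the list, Per1, which is also a direct glucocorticoid target, was not called, with -0.30 in weekly and 0.25 in daily.

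Of 5 clock genes with ROR and REV-ERB elements, 3 rose in weekly and 2 in daily (3 with TMM), and none fell. Of all tested genes, 6.99% were called higher in weekly and 1.76% in daily on the deposited scale. Arntl, which encodes BMAL1, went from 13.6 ± 1.1 CPM to 41.7 ± 3.48 and 37.5 ± 7.78 (SD, n = 5 each), a change of 1.58 and 1.40 (SE 0.15 each, limma, BH-adjusted p = 6.77e-07 and 4.05e-06). Npas2, a CLOCK paralog, changed by 1.41 and 1.47. Cry1, a repressor gene on both the E-box and the ROR element list, rose by 0.85 in weekly (limma, BH-adjusted p = 0.0036) and was not called in daily at 0.57 (limma, BH-adjusted p = 0.07; 0.00587 with TMM). Of 6 E-box clock genes, 3 fell and 1 rose in weekly, and 3 fell and none rose in daily (1, Cry1, with TMM). The 3 that fell, Per2, Nr1d1 and Nr1d2, are also on the D-box list and are the same genes counted there. Over the 15 tested core clock genes, 3 rose and 5 fell in weekly, 2 rose and 5 fell in daily, and 0 were called in daily against weekly (1 with TMM, Per1).

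**Figure D4:**
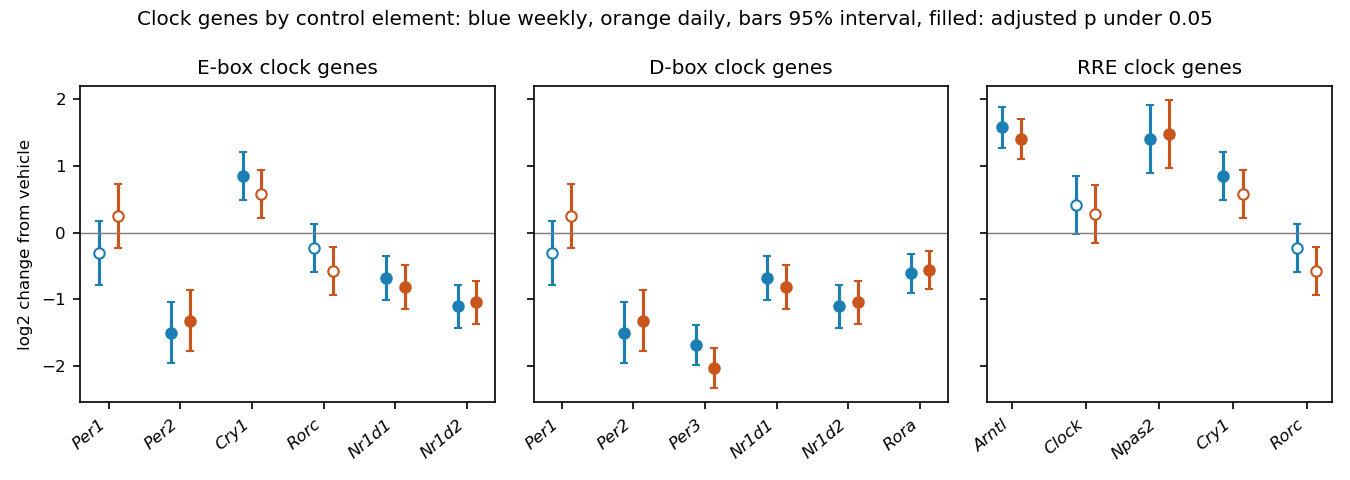
Log2 change from vehicle of the clock genes on the E-box, D-box and ROR element (RRE) lists, blue for weekly and orange for daily, with bars for 95% intervals and filled circles where the limma BH-adjusted p is under 0.05. On the D-box list 5 of 6 genes are filled below 0 in both colours, and on the RRE list Arntl and Npas2 are filled above 0 in both.

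Genes whose profile over the 15 libraries lay nearest to a factor were named by the smallest root mean square difference in log2 level relative to the vehicle mean. For Dbp they were Per3 at 0.759, Mcpt2, a mast cell protease outside the clock, at 0.793 and the small nucleolar RNA Snora73a at 1.033, where the median of all genes was 2.313. Mcpt2 changed by -1.73 and -2.39, and Per3 by -1.68 and -2.03. For Tef they were Fbxo32, which encodes the muscle ubiquitin ligase atrogin-1, at 0.183, Sh3rf2 at 0.216 and the pseudogene Hmgb1-ps8 at 0.227 (median 0.862), the last uncertain because its reads resemble those of its parent gene. Fbxo32 changed by -0.92 and -0.97, beside -0.86 and -1.01 for Tef. For Nfil3 the nearest genes were Fam179a at 0.292, Atf3, a stress-induced bZIP factor, at 0.324 and Map3k6 at 0.353 (median 1.622). For Bhlhe40 they were Dhx37 at 0.144, Odc1, the first enzyme of polyamine synthesis, at 0.155 and Igfbp6 at 0.156 (median 0.455). These likenesses are descriptions over libraries of 3 shared groups.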

How the data were processed

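Total RNA from about 30 mg of quadriceps was sequenced as 150 bp pairs with a stranded kit, per the labels' protocols. Alignment used TopHat2 2.1.0 with mm10, gene counts came from HTSeq and conversion from edgeR, per the submitters' processing notes. The deposited values are CPM, read counts scaled to a fixed library total: the labels call them RPKM, but 222090 of 222090 values are whole multiples of 1 read within 0.01 reads, and that step does not vary with gene length. The test planned for RPKM was kept. Of 14806 features, 534 without a gene name (0.276% to 0.447% of a library) were left out. Another 21 symbols had become calendar dates, and 9 columns were empty.

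The limma package 3.58.1 was applied to log2(CPM + 0.5) (R 4.3.3, trended empirical Bayes) in a single fit of all 15 libraries with group as the only term. The 14059 genes with at least 1 CPM in at least 5 libraries were tested. Benjamini-Hochberg (BH) adjustment ran over all of them, and calls needed an adjusted p under 0.05. Fold changes are on this scale, which understates changes of low genes. Depth was 2780768 to 11052552 reads, and a level of 3 reads was 0.271 to 1.08 CPM. TMM scaling, edgeR 4.0.16 and DESeq2 1.42.0 on recovered reads, other pseudocounts and filters, a replicate block and leaving out libraries were alternatives. The fit was tested on simulated counts. Gene positions and overlaps came from GENCODE M21 (GRCm38), promoters from RefSeq.

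Members and gene lists were chosen with earlier results of these data known. The text names all 7 factors, from each clock or target list up to 4 genes of smallest p in each comparison, and the 3 genes nearest to each called factor, without predicted genes.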

Additional observations from a re-analysis of the deposited data

Results flagged for a closer look

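Bhlhe41 in daily replicate 3 stood apart from its group: it had 13.9 CPM, and the other 4 daily libraries had 20.9 to 23.0 CPM. The gap to the nearest library was 0.768 of the group's range, above the limit of 0.71 for 5 samples. Scaled with TMM the same library was at 21.4 CPM, within the others. Of 21 groups of 5 libraries examined (7 factors in 3 groups), this was the only one past the limit, and chance alone passes about 1 in 20.

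Bhlhe40 differed between the regimens, with a log2 change of -0.825 in daily against weekly (limma, BH-adjusted p = 0.00385, no overlap of the 5 daily and 5 weekly libraries).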

How the results depend on the processing

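Dbp was called against vehicle, in its original direction, in all 25 alternatives of each comparison, and Tef and Nfil3 in 24 of 25. Over single factors and all settings, 469 of 518 values kept direction and side of the threshold, 31 became called, 4 lost the call and 14 turned sign. The 3 factors called in weekly against vehicle became 5 with DESeq2, 5 under TMM without weekly replicate 4 and daily replicate 3, and 1 (Dbp) with vehicle averaged to 1 sample. The 3 called in daily against vehicle became 5 with TMM, 5 with edgeR, 7 with DESeq2, 6 with only the 2 groups fitted, 6 without weekly replicate 4, 7 under TMM without both libraries and 1 with vehicle averaged. The 1 called in daily against weekly became 2 with DESeq2, 2 without weekly replicate 4 and 2 under TMM without both. Leaving out 1 library at a time gave 3 to 4, 3 to 6 and 1 to 2 factors, and 645 to 2251, 347 to 1478 and 521 to 1888 of all tested genes (1133, 547 and 1227 with all libraries). For all tested genes TMM gave 1274 for daily against vehicle and 663 for daily against weekly, and averaged vehicle gave 8 in weekly and 3 in daily against vehicle. The same-numbered libraries of different groups correlated from -0.029 to 0.146 in their deviations, with 1 of 15 pairs over 0.1. Pairs with unlike numbers ranged from -0.214 to 0.227. These values show no pairing by number but cannot exclude it, since the vehicle libraries differed little from each other. With the replicate number as a block, 3, 4 (adding Ciart, limma, BH-adjusted p = 0.047) and 1 factors were called.

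All sign changes were in daily against weekly, and none of the turned values was called. Tef turned to 0.123 with TMM, 0.121 with edgeR, 0.116 with DESeq2 and 0.081 under TMM without both libraries. Bhlhe41 turned to 0.024, 0.019, 0.020 and 0.092 in the same order. Hlf turned to 0.094 with TMM and 0.257 with a pseudocount of 0.1. Leaving out weekly replicates 1, 3 and 5 gave 0.172, 0.026 and 0.143 for Hlf, and leaving out daily replicate 3 gave 0.035, within a range down to -0.698 without weekly replicate 4, which was called. The cause was not tested. Depth limits Hlf and Ciart most, with at most 57 and 27 reads in any library.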

Other observations

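Of 6 enzymes and regulators known as PAR bZIP targets in liver, 3 were analysed here, and they separated the regimens. Por, the electron donor of cytochromes P450, changed by 0.73 in weekly against vehicle (limma, BH-adjusted p = 0.0276), and Alas1, the first enzyme of haem synthesis, by 0.71 (limma, BH-adjusted p = 0.00365). In daily against weekly, Por was lower by 1.137 on the log2 scale, Alas1 by 0.699 and Pdxk, which activates vitamin B6, by 0.881 (limma, BH-adjusted p = 0.00139, 0.00551 and 0.0124). All 3 were also lower with TMM, and none was called in daily against vehicle. Of all tested genes, 8.24% were called lower in daily against weekly and 6.99% higher in weekly against vehicle on the deposited scale. Adipocyte markers were lower in daily than in weekly in the same libraries, and their part was not tested.

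Of 7 clock outputs of muscle, 2 rose and 1 fell in weekly (0 and 3 with TMM). Klf15, a glucocorticoid-induced regulator of muscle metabolism, rose in daily by 0.67 (limma, BH-adjusted p = 0.0347). Of 11 glucocorticoid receptor targets, 8 rose and none fell in each comparison with vehicle, with the metallothioneins Mt2 (2.79 in weekly and 2.33 in daily) and Mt1 (2.79 and 2.17) at the smallest p. Ddit4, an inhibitor of mTOR signalling, had a larger change in daily, 3.26. Of 11 immediate early genes, 7 rose in weekly and 5 in daily, among them Socs3, a feedback inhibitor of cytokine signalling, by 3.19 and 2.41. Beside these 2 lists, also chosen with earlier results known, 6.99% of all tested genes were called higher in weekly and 1.76% in daily against vehicle. Of 6 genes rhythmic in many tissues, 0 were called against vehicle on the deposited scale, whereas with TMM 2 were lower in weekly (Herpud1 and Coq10b) and 1 in daily (Herpud1). Tspan4 was lower in daily than in weekly by 0.948 (limma, BH-adjusted p = 0.0142).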
